A study of Rattus norvegicus with 12 samples.

Results

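The family of miR-130 and miR-301 was examined in cell-free plasma RNA of 12 female Wistar rats. Members were the probes whose name, without the species prefix and any arm ending, is miR-130a, miR-130b, miR-301a or miR-301b. All 4 were found, rno-miR-130a, rno-miR-130b, rno-miR-301a and rno-miR-301b, among 420 probes for rat miRNAs. The pregnant group held 6 rats at day E14.5 of gestation, aged 103 to 373 days, and the non-pregnant control group held 6 rats aged 110 to 269 days, with 4 rats under 200 days in each. The labels name no transgene and no drug treatment, and each rat gave 1 plasma sample that was spun to remove platelets. In the nCounter assay each miRNA is ligated to a DNA tag and hybridised to a barcoded reporter, and every barcode imaged adds 1 count. The raw counts were analysed, so values are counts of barcodes unless another scale is named.

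Members of a miRNA family share the seed, the stretch near the 5′ end that pairs with target messenger RNAs, and can therefore act on many of the same targets. miR-130a is known for promoting vessel growth by repressing antiangiogenic homeobox genes, and the miR-130 miRNAs for restraining fat cell differentiation through PPARγ. miR-301a lies within a host gene, Ska2, and is known for raising NF-κB activity. These roles are why miRNAs of vessel growth and of fat cell differentiation were read beside the family.

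The mature 3p sequences below, from RefSeq on the rat assembly GRCr8, show what the members have in common, with bases 2 to 8 in capitals.

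rno-miR-130a-3p: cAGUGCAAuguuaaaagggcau

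rno-miR-130b-3p: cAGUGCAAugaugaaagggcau

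rno-miR-301b-3p: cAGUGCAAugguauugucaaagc

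The seed AGUGCAA stood at bases 2 to 8 in each of the 3, and miR-301a-3p is named only. The 3 were identical over their first 10 bases. After that, miR-130a-3p and miR-130b-3p matched at 20 of 22 positions in all, while miR-301b-3p matched miR-130a-3p at 13 and miR-130b-3p at 12. The 5p arms of miR-301a and miR-301b matched at 18 of 21 positions. Probe names give no arm for any of the 4 members.

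The members come from 3 places in the genome. Mir130a lies on the minus strand at chr3:90229228-90229315, between the protein-coding genes Ypel4 and Serping1. Mir301a lies on the plus strand at chr10:72422599-72422698, within the annotated spans of Ska2 and Prr11. Mir301b at chr11:97384033-97384110 and Mir130b at chr11:97384380-97384461 are neighbours on the plus strand, 269 bases apart, between Sdf2l1 and Ppil2. Both overlap the annotated span of 2610318N02Rikl. All coordinates are of GRCr8.

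Endogenous totals were 6969 to 10176 counts in control rats and 5163 to 30301 counts in pregnant rats. Pregnant replicates 5 and 6, with 24010 and 30301 counts, stood apart as the deepest libraries, so results are also given for the 10 rats with totals under 20000 counts. The scaling factors (TMM, edgeR's trimmed mean of M values, which sets libraries to a common level over most probes) were 0.479 to 1.96 in pregnant and 0.939 to 1.48 in control rats. Markers of other sources varied widely. The red cell markers miR-451 and miR-144 summed to 17593 to 85094 CPM (the count relative to the scaled library size) in control and 6924 to 184963 CPM in pregnant rats. The 5 platelet markers summed to 30936 to 73663 CPM and 5413 to 209162 CPM, the 5 leukocyte markers found to 22602 to 87717 CPM and 12085 to 175424 CPM, and the 3 liver markers to 14616 to 312784 CPM and 10952 to 723828 CPM. The platelet marker miR-24 was at 1 count, the lowest value in the table, in every rat. In plasma, a change in the number of source cells and a change in what each cell releases cannot be told apart.

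miR-130a was by far the most counted member, and only it was above a background of mean + 1 SD in every rat. By mean raw count it ranked 15th of the 420 endogenous probes, at 146 ± 127 counts (SD, n = 12 rats). miR-301a ranked 103rd at 17.7 ± 12.7 counts, miR-301b 126th at 15.2 ± 7.21 and miR-130b 205th at 8.58 ± 5.81. The order is one of counts and not of molecules, because probes differ in efficiency.

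The miR-130a count exceeded that of each of the other members in all 12 rats. miR-130b was below miR-301b in all 12 rats and below miR-301a in 11. miR-301a and miR-301b, next to each other in this order of counts, could not be ordered, since miR-301a had the higher count in 6 of the 12 rats.

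Background was set in each rat as the mean + 1 SD of 4 probes for plant and worm miRNAs that were not added to the plasma, which came to 12.6 to 32.4 counts. miR-130a passed it in 12 of 12 rats (11 at mean + 2 SD, and 11 against the mRNA probes), miR-301a in 4, miR-301b in 3 and miR-130b in 1. Over all endogenous probes, 9.05% passed in every rat, and 1 of the 4 members did. With the plain mean as background, miR-301a passed in 8 rats, miR-301b in 10 and miR-130b in 3. The levels of these 3 members therefore lie close to the level of probes without a target.

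**Figure D1:**
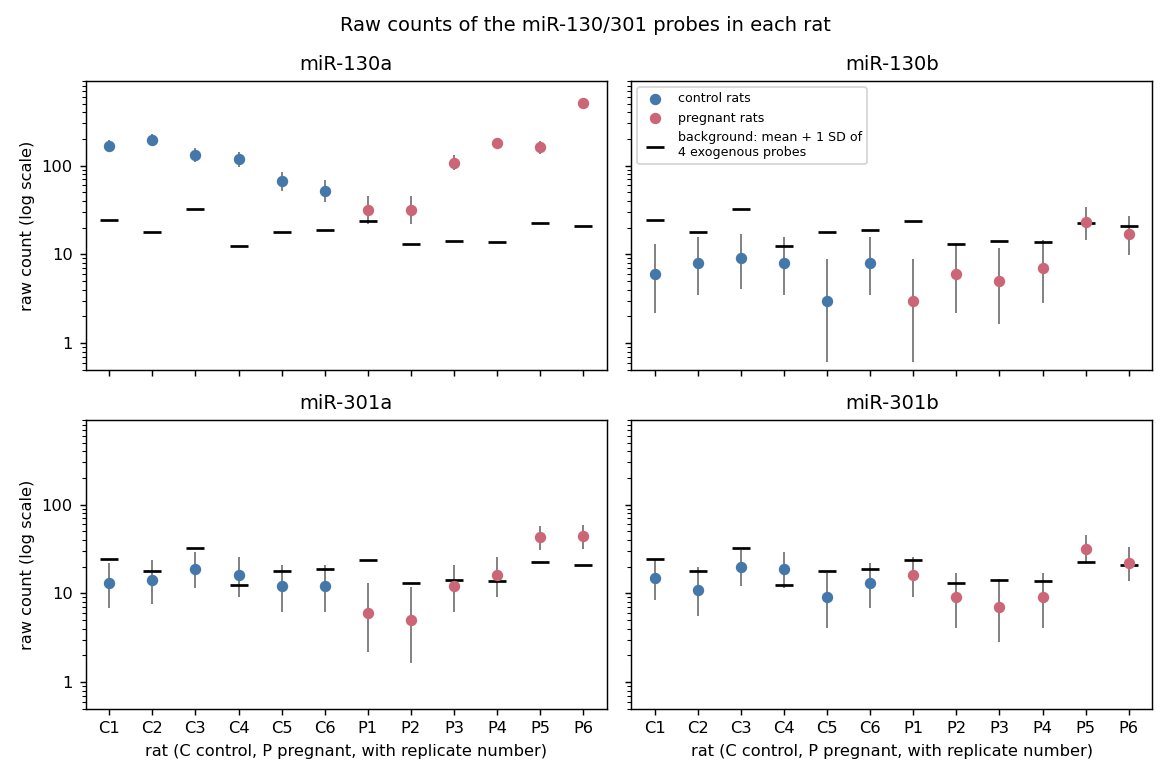
Raw counts of the 4 members (log axis) in 6 control rats (C1 to C6) and 6 pregnant rats (P1 to P6), with exact 95% Poisson intervals that cover counting error only and a bar for the background of each rat. miR-130a lies above the bar in all 12 rats, from 32 to 506 counts, while miR-130b lies above it in 1.

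In raw counts miR-130a spread far more among pregnant than among control rats, and the group ranges overlapped. Control rats had 52 to 197 counts with a median of 125, and pregnant rats 32 to 506 with a median of 134.5. Pregnant replicates 1 and 2, at 32 counts each, were below every control rat, and pregnant replicate 6, at 506, was above every control rat. That rat was the deepest library, and its share of miR-130a, 1.67% of the endogenous counts, was below the 1.71% and 1.96% of control replicates 1 and 2. The lowest share was 0.367% in pregnant replicate 1 and the highest was that of control replicate 2, with 95% Wilson intervals of 0.26% to 0.517% and 1.71% to 2.25% that cover counting error only. Counting error alone would give a coefficient of variation of 8.28% at the mean count, against 87.0% observed in raw counts, which also differ in depth. Over all rats it was 67.4% in TMM-scaled CPM and 45.5% in CPM with library size alone. Within pregnant and control rats it was 104% and 45.9% in raw counts, and 57.4% and 34.9% with library size alone. On the scaled CPM level the means were 13305 ± 6255 CPM in control and 15572 ± 12883 CPM in pregnant rats (SD, n = 6 each).

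miR-301a, miR-301b and miR-130b were low in both groups, and their highest counts came from the same pair of pregnant rats. miR-301a had 12 to 19 counts in control rats (median 13.5) and 5 to 44 in pregnant rats (median 14). Replicates 5 and 6 had 43 and 44 counts, and the other pregnant rats had at most 16. miR-301b had 9 to 20 counts in control rats (median 14) and 7 to 32 in pregnant rats (median 12.5). miR-130b had 3 to 9 counts in control rats (median 8) and 3 to 23 in pregnant rats (median 6.5). In each of the 3 the 6 pregnant rats overlapped the control rats, and replicates 5 and 6 were above all control rats. These are the 2 rats with the highest totals. On the CPM level miR-301a averaged 1560 ± 288 CPM in control and 1863 ± 1114 CPM in pregnant rats, miR-301b 1560 ± 422 and 1479 ± 494 CPM, and miR-130b 753 ± 225 and 918 ± 448 CPM (SD, n = 6 each).

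Whether circulating levels of the family differ in pregnancy was tested with edgeR's quasi-likelihood test. No member passed. Of the 187 endogenous probes tested, those that reached 10 counts in 6 rats or more, 0% were called at an adjusted p under 0.05, with a lowest adjusted p of 0.670, and 5.88% had an unadjusted p under 0.05, of which none was a member. The 11 probes behind the second share were split 10 higher to 1 lower in pregnant rats, but with library size alone 1 of 13 was higher, and with upper quartile scaling 3 of 14. The limit of 10 counts lay below the background of mean + 1 SD, 12.6 to 32.4 counts, in every rat. The tested probes, and the TMM factors and medians taken over them, therefore include probes near background. miR-130a had a log2 fold change (pregnant minus control) of 0.23 with a 95% interval from -0.93 to 1.39 and an edgeR adjusted p of 0.967. The values were 0.33 (-0.41 to 1.07, adjusted p = 0.832) for miR-301a and -0.03 (-0.55 to 0.49, adjusted p = 0.972) for miR-301b. miR-130b, with at least 10 counts in 2 rats, was outside the filter, and the edgeR fit to all 420 probes gave 0.41 (-0.37 to 1.20, adjusted p = 0.939). The intervals leave room for a fold of 0.525 to 2.62 for miR-130a and of 0.684 to 1.4 for miR-301b. miR-301b passed the background of mean + 1 SD in 3 of 12 rats, so its narrower interval describes counts near background. The median of the 4 members, with miR-130b from the fit to all 420 probes, was 0.28 beside 0.05 over all 187 probes tested. Of the 3 members inside the filter, the middle value was that of miR-130a, 0.23.

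The direction depended on the libraries and on the scale. Scaling to library size alone moved the median of all tested probes from 0.05 to -0.33 and gave -0.45 for miR-130a, -0.22 for miR-130b, -0.37 for miR-301a and -0.53 for miR-301b. In the 10 rats with totals under 20000 counts the fitted log2 fold changes were -0.25, -0.25, -0.35 and -0.30 in the same order, and without pregnant replicate 6 alone miR-130a had -0.27.

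**Figure D2:**
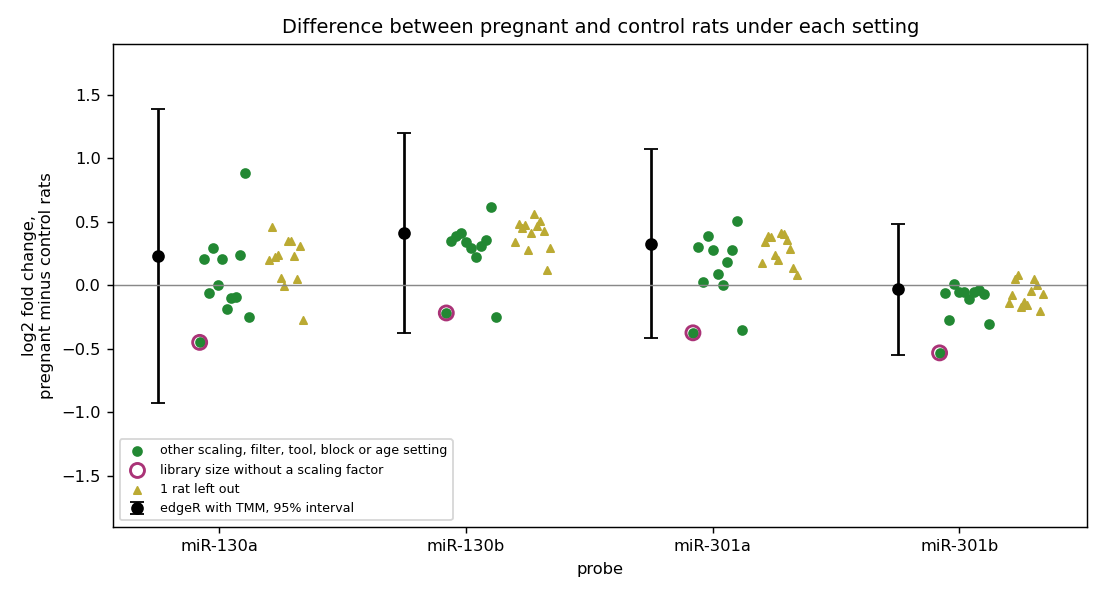
Log2 fold change between pregnant and control rats for each member (vertical axis) under edgeR with TMM scaling, with its 95% interval, and under the other settings and with 1 rat left out. The interval of every member spans 0, and library size scaling without a factor put all 4 members below 0.

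In control rats the older animals had the higher miR-130a counts and in pregnant rats they did not, although no test of that difference passed after adjustment. Rats older than 200 days had 168 and 197 counts in the control group, above the 52 to 132 of the 4 younger control rats. In the pregnant group the older rats had 32 and 108 counts, and the younger rats 32, 178, 161 and 506. The last 2 of these were replicates 5 and 6, the deepest libraries. On the TMM-scaled level younger and older rats averaged 10102 and 19710 CPM in the control group. In the pregnant group they averaged 19040 and 8636 CPM. The edgeR interaction of pregnancy with age class (older minus younger) was -2.11 ± 1.10 (SE) on the log2 scale for miR-130a, with an adjusted p of 0.729. With library size alone this interaction was -1.78 ± 0.85 (edgeR unadjusted p = 0.0480, adjusted 0.998). The values that follow are again with TMM. For miR-130b it was -1.36 ± 0.78, for miR-301a -0.94 ± 0.73 and for miR-301b 0.04 ± 0.55, with adjusted p of 0.845, 0.772 and 0.976 in edgeR. Among the younger rats alone (4 in each group) the log2 fold change was 0.88 for miR-130a, 0.62 for miR-130b, 0.51 for miR-301a and -0.07 for miR-301b, and the edgeR adjusted p was 0.757, 0.794, 0.757 and 0.963. With 2 older rats in each group the older classes rest on few animals.

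Ratios of members within a rat do not depend on scaling, and none passed the test between the groups. The miR-130a to miR-301a ratio had a median of 7.16 in control rats (4.33 to 14.1) and 7.70 in pregnant rats (3.74 to 11.5). The log2 ratio differed by -0.10 (pregnant minus control), against SDs of 0.67 and 0.64, with a two-sided exact permutation p of 0.788. Among the 6 ratios of 2 members the exact permutation p lay between 0.481 and 0.996 and the adjusted p between 0.977 and 0.996. In most rats all members but miR-130a were not above the background of mean + 1 SD. Each ratio therefore holds at least 1 probe near background, compares counts of different probes and is no ratio of molecules. After subtraction of the mean of the 4 exogenous probes the miR-130a to miR-301a log2 ratio differed by -1.25 with an exact permutation p of 0.0498, and in that setting miR-301a was held at the floor of 1 in 4 of 12 rats.

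**Figure D3:**
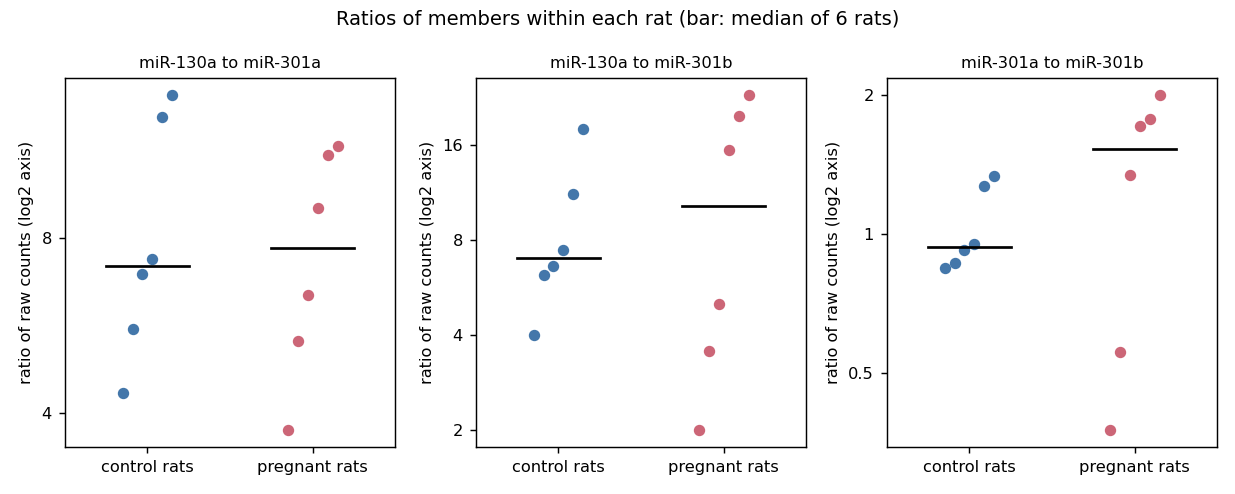
Ratios of raw counts of 2 members within each rat (log2 axis), with points for 6 control and 6 pregnant rats and a bar at each median. The groups overlap in all 3 panels, and miR-301a and miR-301b passed the background of mean + 1 SD in only 4 and 3 of 12 rats.

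The methods describe 14 workflows that combine 3 treatments of background (none, subtraction, thresholding) at 3 levels with normalisation to stable probes chosen by NormFinder or to all probes above background (total RNA). They were rebuilt here with the 4 exogenous probes as background. That choice also set the normalisers, which were the 38 probes above background in all rats for total RNA and the 5 steadiest of these for NormFinder. The steadiest, miR-450a, had a log2 fold change of 0.75 (edgeR unadjusted p = 0.0248, adjusted 0.670). The rest of the 5 had 0.04, 0.03, 0.03 and -0.07. The effect of miR-450a on the NormFinder values was not tested. The values below belong to these rebuilt workflows and not to the study's own output. By the methods' t-test at an unadjusted p under 0.05, 9.29% of the 420 probes were called in at least 1 workflow, and 1 of the 4 members was, miR-301b in 1 workflow. miR-130a, miR-301a and miR-130b were called in 0 of the 14 rebuilt workflows.

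The sign of miR-130a followed the normalisation in every rebuilt workflow. Pregnant over control was 1.04 to 1.12 in the 7 NormFinder workflows and 0.693 to 0.946 in the 7 total RNA workflows. These are not separate results. Thresholding held at most 1 rat at the floor and left the ratio at 0.946 with total RNA and 1.12 with NormFinder, as without correction. Exact permutation gave p values from 0.361 to 0.946. miR-130a itself is among the 38 total RNA normalisers, where its NormFinder stability value of 0.457 ranked 29th (lower is steadier).

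miR-301a was sensitive to background. Under subtraction its ratio was 2.07 to 3.88 in all 6 workflows, with 4 to 10 of 12 rats at the floor and an exact permutation p between 0.134 and 0.383. Under thresholding the ratio was 0.880 to 1.22, and without correction 0.985 to 1.15.

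The call of miR-301b came from subtraction of the mean + 2 SD with NormFinder normalisation. Its ratio there was 0.755, with an exact permutation p of 0.0455. In that workflow 11 of 12 rats were at the floor of 1 before normalisation. miR-130b, at the floor in all 12 rats of the same workflow, had a ratio of 0.767 and an exact permutation p of 0.0736, so a ratio of that size arose there from the normalisation factors alone.

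**Figure D4:**
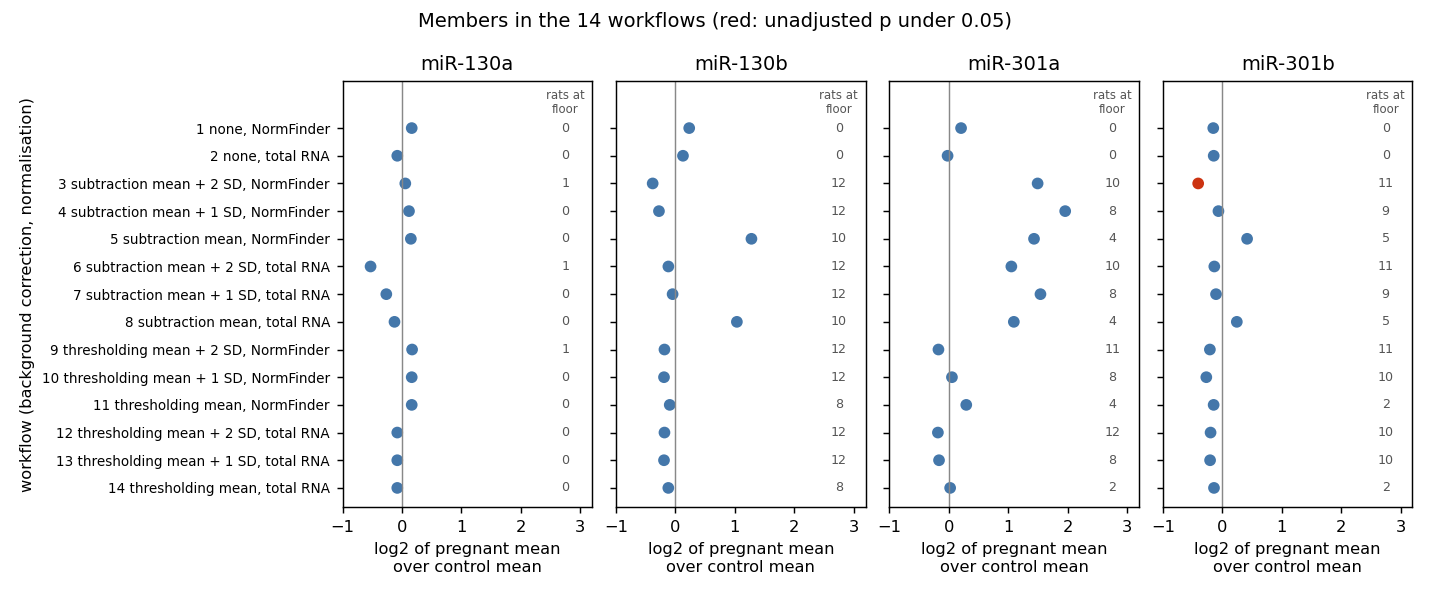
Log2 of the pregnant mean over the control mean for each member (horizontal axis) in 14 workflows (vertical axis), with the number of rats at the background floor at the right of each panel. miR-130a lies right of 0 with NormFinder and left of 0 with total RNA normalisation, and miR-301b has the 1 point with an unadjusted p under 0.05 (red).

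Across rats, miR-130a and miR-301a were correlated on the TMM-scaled level, but less so with library size alone. Over 12 rats Pearson's r of log2 CPM was 0.81 (permutation p = 0.00173, adjusted over 6 pairs 0.0104) and Spearman's rho was 0.66 (permutation p = 0.0221, adjusted 0.0663). Without pregnant replicates 1 and 2, the rats farthest from the median of miR-130a, r was 0.56 with a permutation p of 0.0903, so the relation rests partly on them. Within the groups r was 0.47 in control and 0.89 in pregnant rats (n = 6 each). With library size alone r was 0.54 (permutation p = 0.0709) and rho 0.22. The rho of 0.66 with TMM was above the median rho over 186 tested probes, -0.06 for miR-130a and -0.05 for miR-301a. Probes outside the family reached a higher rho, up to 0.79 for miR-130a and 0.97 for miR-301a. The adjusted p covers the 6 pairs of the family only. Whether this pair stands out among all tested probes was not tested. miR-130b and miR-301a had r of 0.70 (permutation p = 0.0112, adjusted 0.0336) and rho of 0.79 (permutation p = 0.00317, adjusted 0.0190), and r of 0.73 without the 2 rats farthest from the median of miR-130b. With library size alone r was 0.54 and rho 0.39. miR-130b passed the background of mean + 1 SD in 1 of 12 rats and miR-301a in 4. Correlations with these 2 probes therefore rest largely on counts near background.

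miR-130b and miR-301b, the neighbours on chromosome 11, had r of 0.35 (permutation p = 0.262) and rho of 0.38 (permutation p = 0.218). The other 3 pairs had r of 0.53 (miR-130a and miR-130b), 0.03 (miR-130a and miR-301b) and 0.31 (miR-301a and miR-301b), with adjusted permutation p of 0.147, 0.919 and 0.386. All probes of a rat share its library and its scaling factor.

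The probes most like each member were taken as the 3 with the highest rho of log2 CPM over 12 rats, and are given with no p because they were picked for it. For miR-130a they were miR-29c (0.79), known for repressing collagens, miR-1224 (0.78) and miR-199a-3p (0.78), with miR-22 tied at 0.78. For miR-301a they were the joint probe for miR-20a and miR-20b-5p (0.97), of the cell-cycle miRNAs related to miR-17, miR-27a (0.95), known for restraining fat cell differentiation, and miR-146a (0.94), which dampens inflammatory signalling. For miR-130b they were miR-872 (0.81), miR-301a (0.79) and miR-148b-3p (0.77), and for miR-301b miR-652 (0.69), miR-15b (0.63) and miR-201 (0.62). With library size alone, rho of miR-301a was 0.85, 0.69 and 0.66 for its 3 probes, and rho of miR-130a fell to 0.23 for miR-29c, 0.45 for miR-1224 and 0.62 for miR-199a-3p.

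The correlations of miR-301a with markers of other sources also depended on the scale. With TMM its rho was 0.62 to 0.93 with the 4 platelet markers inside the count filter, 0.73 to 0.76 with the 2 red cell markers, -0.24 to 0.94 with the 5 leukocyte markers and 0.41 to 0.69 with the 2 liver markers. With library size alone these ranges were 0.28 to 0.64, 0.38 to 0.66, 0.077 to 0.80 and -0.39 to 0.32. For miR-130a the TMM ranges were 0.25 to 0.51, 0.37 to 0.38, -0.34 to 0.51 and 0.25 to 0.58, and with library size alone no marker exceeded 0.24. The part of these sources in the values of the family was not tested.

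A gene on the opposite strand overlaps Mir130a. Mir3590, at chr3:90229235-90229308 on the plus strand of GRCr8, makes miR-3590-5p, whose sequence is shown because all 21 of its bases are complementary to miR-130a-3p. Capitals mark the complement of the seed.

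rno-miR-3590-5p: ugcccuuuuaacaUUGCACUg

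The antisense probes spread less than miR-130a in raw counts and on the TMM scale, but not with library size alone. miR-3590-5p had 64 to 120 counts in control rats (median 87) and 66 to 135 in pregnant rats (median 82). miR-3590-3p had 22 to 49 (median 30) and 21 to 43 (median 37). The highest raw count of miR-130a was 15.8 times its lowest, against 2.11 times for miR-3590-5p and 2.33 times for miR-3590-3p. In TMM-scaled CPM these values were 10.2, 1.98 and 1.74, and in CPM with library size alone 5.22, 6.61 and 7.04, which turns the order around. The ratio of miR-130a to miR-3590-5p within a rat ran from 0.390 to 6.10 and was above 1 in 9 of 12 rats.

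Pearson's r of log2 CPM between miR-130a and miR-3590-5p was -0.57 (permutation p = 0.0515, adjusted over 2 pairs 0.103) and rho was -0.36 (permutation p = 0.248). Without pregnant replicates 1 and 2 r was -0.68, with library size alone -0.33 and in raw counts 0.04. For miR-3590-3p r was -0.28 (permutation p = 0.365) and rho -0.13 (permutation p = 0.700), but r was 0.74 within control rats, -0.80 within pregnant rats (n = 6 each) and 0.14 without pregnant replicates 1 and 2. In edgeR the log2 fold change was -0.08 for miR-3590-5p and 0.07 for miR-3590-3p, each with an adjusted p of 0.967. Whether the complementary molecules affect each other's counts was not tested.

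**Figure D5:**
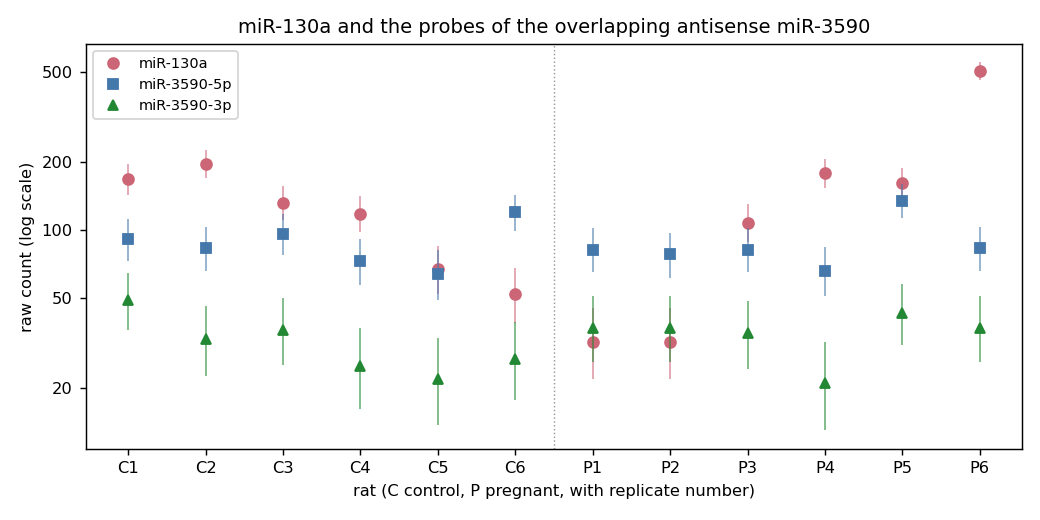
Raw counts (log axis) of miR-130a and of the 2 probes of the antisense miR-3590 in 6 control rats (C1 to C6) and 6 pregnant rats (P1 to P6), with exact 95% Poisson intervals. In raw counts miR-3590-5p lies between 64 and 135 while miR-130a runs from 32 to 506; depth differs among these libraries, and with library size alone the spreads are 6.61-fold and 5.22-fold.

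Other miRNAs carry the first 6 bases of the seed shifted by 1 base, as the following sequences show with those bases in capitals.

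rno-miR-148b-3p: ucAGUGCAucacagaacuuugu

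rno-miR-152-3p: ucAGUGCAugacagaacuugg

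rno-miR-291b: aaAGUGCAuccauuuuguuagu

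miR-148b-3p had 5 to 40 counts and a log2 fold change of 0.43 ± 0.35 (SE, edgeR adjusted p = 0.797). miR-152 had 9 to 40 counts and 0.25 ± 0.25 (edgeR adjusted p = 0.832). miR-291b never reached 10 counts in any rat and passed the background in 0 of 12. The list of related miRNAs by name also held the members miR-130b and miR-301b. Of its 3 probes inside the filter, 0 were called, beside 0% of all 187 tested probes. miR-148b-3p had the lowest p of those with a higher fitted value in pregnant rats, and miR-301b was the one with a lower value.

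Of 13 tested miRNAs known for vessel growth or the response to low oxygen, 0 were called after adjustment or at an unadjusted p under 0.05. Their median log2 fold change was 0.40 beside 0.05 over all tested probes, and with library size alone -0.28 beside -0.33. miR-27b, which acts in vessel sprouting, was nearest to the threshold among those with higher values, at 0.93 ± 0.61 (SE, edgeR adjusted p = 0.732), and miR-132 among those with lower values, at -0.36 ± 0.20 (edgeR adjusted p = 0.732). Of 7 tested miRNAs known for fat cell differentiation, 0 were called after adjustment, and 1 had an unadjusted p under 0.05, beside 5.88% of all 187 tested probes. That one was miR-21, at 1.23 ± 0.57 (SE, edgeR adjusted p = 0.732). The median of the 7 was 0.36 beside 0.05 over all tested probes, and with library size alone -0.28 beside -0.33.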

How the data were processed

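Plasma RNA of 6 pregnant and 6 non-pregnant control rats was assayed with the rat nCounter miRNA codeset. The authors deposited raw counts, whole numbers of at least 1 with no background correction or normalisation, for 420 endogenous, 5 exogenous and 4 mRNA probes. All 12 columns were used, and 0 of 66 pairs of rats were identical. The negative and positive control probes were not used here, so 4 exogenous probes stood in for the former and the positive control factor was 1. Groups and ages were taken from the labels.

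Counts were fitted with edgeR 4.0.16 (quasi-likelihood, TMM) over the 187 endogenous probes that reached 10 counts in 6 rats or more, with Benjamini-Hochberg adjustment. miR-130b was taken from a fit to all 420. Exact permutation tests used all 924 assignments, and correlations 100000 permutations. The 14 workflows set subtracted values under 1 to 1 before normalisation and applied thresholds after it. Alternatives used DESeq2 1.42.0, limma 3.58.1 and other scalings, filters, backgrounds and rat subsets. The procedures were tested on simulated data in R 4.3.3 and Python 3.11.15.

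Named probes were every member, the 3 most similar to each, and the probes with the seed or its shifted first 6 bases. The list members with the lowest p in each direction and the steadiest NormFinder normaliser were also named. Members and lists were chosen with earlier results of these data known. The low totals, 5163 to 30301 counts per rat, limit the precision of the 3 low members.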

Additional observations from a re-analysis of the deposited data

How the results depend on the processing

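The count of probes called by edgeR was 0 under all 24 alternatives, with DESeq2 and limma among them, and 11 probes had an unadjusted p under 0.05 in the edgeR fit, against 8 with DESeq2, 6 with limma, 3 under the replicate block and 19 in the 10 rats with lower totals. No alternative gave any member an adjusted p under 0.05. The log2 fold change of miR-130a fell below 0 with library size alone (-0.45), upper quartile scaling (-0.057), limma-voom (-0.18), the exact permutation of log2 CPM (-0.10) and the replicate block (-0.088), and in the 10 rats with totals under 20000 counts (-0.25). With 1 rat left out it ran from -0.27 (without pregnant replicate 6) to 0.46, and it was -0.01 without control replicate 6. miR-130b and miR-301a fell below 0 with library size alone (-0.22 and -0.37) and in those 10 rats (-0.25 and -0.35). miR-301b had 0.014 without a filter, and ran from -0.20 to 0.084 with 1 rat left out, and its age interaction was -0.058 without a filter. Same-numbered rats shared only a number: the correlations of their deviations ran from -0.31 to 0.25, so the replicate block is no pairing, and under it miR-301a had 0.18, miR-130b 0.31 and miR-301b -0.05. The miR-130a to miR-301a log2 ratio was -1.25 after subtraction of the exogenous mean, 0.33 in rats under 200 days, and -0.27 to 0.089 with 1 rat left out. The replicate block left it at -0.10. The correlation of these 2 members was 0.54 with library size alone, 0.56 without the 2 rats farthest from the median and 0.86 in the 10 rats with lower totals. The workflow call of miR-301b was lost (0 workflows) after Benjamini-Hochberg adjustment and with background from the 4 mRNA probes or from the 4 exogenous and 4 mRNA probes, and with 1 rat left out miR-301b and miR-130b were each called in 0 to 1. With the mean, or the mean + 2 SD, as background, miR-130a passed in 12 or 11 rats, miR-301a in 8 or 2, miR-301b in 10 or 1 and miR-130b in 3 or 0, and miR-301b passed in 5 against the mRNA probes. The subset by total counts, the results of miR-130b and miR-301b and the alternatives of the age interaction were added after the data had been seen. The cause of these shifts was not tested.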
